A study of Mus musculus with 51 samples.

Results

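The IFIT and OAS antiviral effectors are a set of 10 interferon-stimulated genes, Ifit1, Ifit2, Ifit3, Oas1a, Oas2, Oas3, Oasl1, Oasl2, Rsad2 and Bst2, chosen by symbol from the 40077 genes of the deposited tables. All 10 were found, and their RNA was followed by bulk RNA-seq in 35 mouse tumors and 16 cultures of tumor cells in which Uba1, the gene of the main enzyme that starts ubiquitin conjugation, was depleted, overexpressed or inhibited. Myc-CaP, a mouse prostate cancer line, gave 28 tumors and all 16 cultures, and B16-BL6, a mouse melanoma line, gave 7 tumors. In Myc-CaP tumors, 3 with a control guide RNA (sgNC) were set against 7 labelled sgUba1 (genotype Uba1-depletion), 3 with empty vector (EV) against 4 with Uba1 overexpression (OE), and 6 from vehicle-treated mice against 5 from mice given TAK-243, a small-molecule inhibitor of UBA1. The B16-BL6 tumors were 3 sgNC and 4 sgUba1. Cultured Myc-CaP cells came in 8 groups of 2 libraries. The first 4 were sgNC and sgUba1 cells, each with PBS or IFN-γ, and the other 4 were wild-type cells, untreated or with 50 nM TAK-243, each alone or with IFN-γ. The sgNC, EV, vehicle and untreated groups carry the label WT.

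The sgUba1 lines were expanded from single cells, so a line is 1 clone, and cells were injected into both flanks, so tumors of a group may share a mouse. The study used more than 1 guide against Uba1, and the sample titles do not say which guide a tumor carried. No label says that the 2 libraries of a cell group came from separate cultures, and p-values in cells then measure only the spread between these libraries. The labels give no age, time on treatment or IFN-γ dose.

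Type I interferons bind receptors that activate the complex ISGF3, which binds the interferon-stimulated response element (ISRE) in front of target genes. Type II interferon, IFN-γ, acts mainly at gamma-activated sites (GAS) and through IRF1, a factor that it induces. The products of the genes described here act against viral RNA and virus particles. IFIT proteins bind viral RNA and block its translation. Oas1a, Oas2 and Oas3 are oligoadenylate synthetases, which sense double-stranded RNA and make the messenger that activates the ribonuclease RNase L. Oasl1 and Oasl2 are OAS-like proteins, of which Oasl1 limits translation of Irf7. Rsad2 encodes viperin, a radical SAM enzyme that makes a chain-terminating nucleotide, and Bst2 encodes tetherin, a surface protein that holds budding virus on the cell. In tumors these genes serve as a common readout of interferon signaling in cancer cells and in the immune and stromal cells around them.

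The genes lie in few places in the genome (GENCODE M21 on GRCm38). Ifit1, Ifit2 and Ifit3 sit within 99.3 kb at chr19:34550694-34650009, Oas1a, Oas3 and Oas2 within 177.2 kb at chr5:120730333-120907521, and Oasl1 and Oasl2 within 41.0 kb at chr5:114896936-114937915. Rsad2 lies at chr12:26442746-26456452 and Bst2 at chr8:71534255-71537456. RefSeq promoter windows (GRCm38.p6) matched 9 of the 10 genes, with Oas2 named only. The letters GAAANNGAAA, the core of an ISRE, were searched on both strands and stood in the windows of 6 of the 9 genes (Ifit1, Ifit3, Oas1a, Oas3, Rsad2 and Bst2), against 3.44% of all 32851 windows of that length. They were not in the windows of Ifit2, Oasl1 or Oasl2, which says only that these letters are not in those windows. The core of a GAS, TTCNNNGAA, stood in the windows of Oas1a, Bst2 and Ifit2, against 8.3% of all windows, and in Bst2 it overlapped the ISRE letters. The 170 bases before the start are printed for the 6 genes with a match and for Ifit2, the IFIT gene without one, each 5′ to 3′ on the strand of its gene, with capitals on the GAAANNGAAA letters or their reverse complement. The windows are chr19:34640719-34640888 for Ifit1, chr19:34583359-34583528 for Ifit3 and chr19:34550524-34550693 for Ifit2 on the plus strand, and chr5:120907526-120907695 for Oas1a, chr5:120777660-120777829 for Oas3, chr12:26456453-26456622 for Rsad2 and chr8:71537473-71537642 for Bst2 on the minus strand.
Ifit1: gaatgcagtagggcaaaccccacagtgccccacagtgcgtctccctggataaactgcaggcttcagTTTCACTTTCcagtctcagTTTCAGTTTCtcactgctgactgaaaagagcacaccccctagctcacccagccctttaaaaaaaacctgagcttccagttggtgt
Ifit3: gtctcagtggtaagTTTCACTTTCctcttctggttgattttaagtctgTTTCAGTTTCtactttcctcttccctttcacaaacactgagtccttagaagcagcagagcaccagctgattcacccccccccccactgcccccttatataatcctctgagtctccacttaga
Oas1a: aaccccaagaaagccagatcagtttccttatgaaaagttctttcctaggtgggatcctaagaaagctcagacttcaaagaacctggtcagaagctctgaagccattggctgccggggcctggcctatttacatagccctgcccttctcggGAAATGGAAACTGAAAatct
Oas3: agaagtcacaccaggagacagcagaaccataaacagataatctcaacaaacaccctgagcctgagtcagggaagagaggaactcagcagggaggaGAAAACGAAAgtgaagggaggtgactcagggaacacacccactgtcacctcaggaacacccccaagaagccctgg
Rsad2: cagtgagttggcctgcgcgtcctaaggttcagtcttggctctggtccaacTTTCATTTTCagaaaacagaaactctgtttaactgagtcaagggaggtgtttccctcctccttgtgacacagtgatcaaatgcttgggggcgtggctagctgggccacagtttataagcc
Bst2: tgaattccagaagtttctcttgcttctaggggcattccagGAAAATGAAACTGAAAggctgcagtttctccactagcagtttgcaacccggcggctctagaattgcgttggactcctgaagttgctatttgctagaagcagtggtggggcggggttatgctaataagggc
Ifit2: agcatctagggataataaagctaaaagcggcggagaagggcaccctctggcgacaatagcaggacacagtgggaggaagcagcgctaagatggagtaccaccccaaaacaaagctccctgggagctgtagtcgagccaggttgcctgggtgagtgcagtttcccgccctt

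Matches in Ifit1 began 104 and 85 bases before the start, in Ifit3 156 and 122, in Oas1a 20 and 14, in Oas3 75, in Rsad2 120 and in Bst2 130 and 124, so that the pairs in Oas1a and Bst2 overlap. Symbols are used as the files give them. Several of the genes have near copies next to them (Ifit3b beside Ifit3, Ifit1bl1 and Ifit1bl2 beside Ifit1, and Oas1g and others beside Oas1a), and the estimated counts of such pairs share reads in an unknown way.

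Library depth and the Uba1 RNA set how each comparison can be read. Total counts ran from 8651963 to 14168230 in the sgRNA and OE Myc-CaP tumors, from 26121269 to 35693092 in the TAK-243 and B16-BL6 tumors, from 12860844 to 16793793 in the TAK-243 cells and from 26768450 to 38032284 in the sgRNA cells. Levels within an experiment are given as CPM, counts scaled to the library size with TMM factors. Uba1 stood at 410 to 455 CPM in B16-BL6 sgNC tumors and at 208 to 247 in sgUba1, at 525.6 to 600 in sgNC cells and 269 to 295 in sgUba1 cells, and at 278 to 310 in EV and 631 to 747 in OE tumors. In the Myc-CaP tumors labelled sgUba1 it did not follow the label in 4 of 7 libraries. Replicates 1 to 3 had 197 to 211 CPM, whereas replicates 4 to 7 had 361 to 383, above all 3 sgNC tumors (320 to 337). A guide can break a protein without lowering its RNA, so these 4 are called "labelled sgUba1", and the fold changes and calls of the 10 genes that rest on them are also given without them. The B16-BL6 tumors carry the cell type label Epithelial, but 7 of 7 had melanocyte markers at a summed 12484 to 16313 CPM and epithelial markers at 1.65 to 2.25. Leukocyte markers summed to 51.9 to 338 CPM in tumors and to at most 0.563 CPM in cells, where Laptm5 and Cd53 were at 0 in every library.

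Between genes, levels were compared as TPM, which are scaled for transcript length. Bst2 was the most abundant of the 10 in every group. In the 3 Myc-CaP sgNC tumors it had 97.4 ± 23.4 TPM (SD, n = 3), followed by Oasl2 (11.2 ± 0.347), Ifit2 (9.04 ± 1.36), Oas1a (6.35 ± 2.12), Oas2 (5.84 ± 1.37), Ifit1 (3.49 ± 0.230), Ifit3 (3.29 ± 2.41), Oasl1 (2.70 ± 1.04), Rsad2 (2.54 ± 0.859) and Oas3 (2.36 ± 0.525). Oas1a and Oas2 lay within each other's SD, as did neighbours from Ifit1 down to Oas3. The B16-BL6 sgNC tumors had another order, with Bst2 at 122 ± 27.1 TPM, then Rsad2 (21.5 ± 9.69), Ifit3 (21.4 ± 11.7) and Ifit2 (19.0 ± 2.60), and with Oas2 (1.07 ± 0.768), Oasl1 (1.02 ± 0.415) and Oas3 (0.970 ± 0.537) last. The 3 IFIT genes and viperin thus stood higher in the melanoma, and the long synthetases lower, a comparison between lines that was not tested.

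Cultured Myc-CaP cells held only Bst2 and Ifit2 at a level that counts well. Over the 16 cell libraries the median was 33.3 TPM for Bst2 and 18.8 for Ifit2, but 0.461 for Ifit3, 0.251 for Ifit1, 0.175 for Oas3, 0.143 for Oasl2 and 0.0589 for Rsad2. Oas2 had at most 3 counts in all 16 libraries and Oas1a in 15 of 16. Over the 28 Myc-CaP tumors the medians were 106 TPM for Bst2, 11.1 for Oasl2, 7.64 for Ifit2, 6.44 for Oas1a, 5.99 for Oas2 and 3.26 to 4.15 for the others. Ifit2 was the exception among the 10, with a median in tumors that was 0.407 times that in cells. Whether the RNA of the other 9 in tumors came from the cancer cells or from leukocytes and stroma cannot be told apart in bulk RNA.

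**Figure D1:**
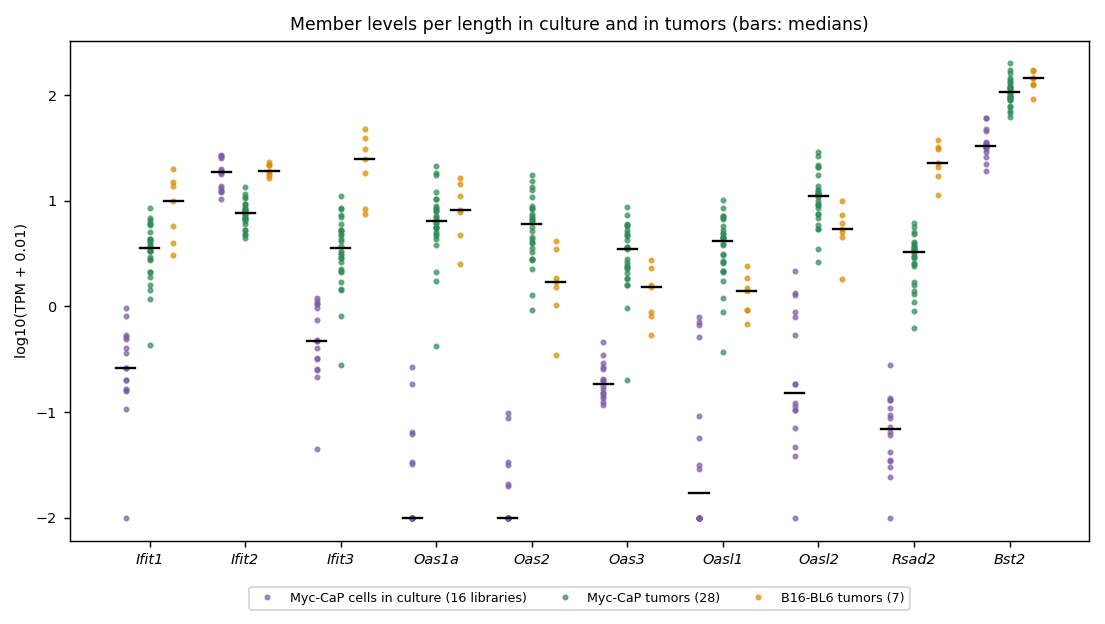
Levels of the 10 genes as log10(TPM + 0.01) in 16 Myc-CaP cell libraries, 28 Myc-CaP tumors and 7 B16-BL6 tumors, with a point for each library and bars at the medians. Bst2 and Ifit2 sit high in cells and tumors, while Oas1a and Oas2 have a median of 0 TPM in cells and of 6.44 and 5.99 TPM in Myc-CaP tumors.

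The Myc-CaP sgRNA tumors ask whether Uba1 depletion moves the antiviral program in a tumor. All 10 genes had a higher mean in the 7 tumors labelled sgUba1 than in the 3 sgNC tumors, but none passed the test across all genes. That test was the quasi-likelihood test of edgeR, its p-values adjusted by Benjamini-Hochberg over all genes of the fit, and a gene is called where the adjusted p is under 0.05. The median log2 fold change of the 10 was 1.02, beside 0.0012 over all 16202 genes tested. Calls at the threshold numbered 0 of 10, where 1.15% of all genes were called higher, and 7 of 10 had an unadjusted p under 0.05, where 12.7% of all genes did. DESeq2 called 4 of 10, where it called 6.14% of all genes higher, and limma-voom called 0. In bulk samples, more cells of a type and more RNA per cell cannot be told apart.

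The OAS and OAS-like genes had log2 fold changes of 0.98 to 1.27. Oas3, the longest of the synthetases, had 7.90, 7.15 and 5.47 CPM in the 3 sgNC tumors and a lowest value of 8.35, a median of 17.7 and a highest of 23.1 in the 7 labelled sgUba1. The groups did not overlap, with a log2 fold change of 1.27 ± 0.30 (SE) and an adjusted p of 0.0509. Oasl1 had 5.07, 2.22 and 3.38 CPM in sgNC and 5.19 to 11.7 (median 7.77) in sgUba1, also without overlap. Its log2 fold change was 1.16 ± 0.34 (adjusted p = 0.0799). No overlap in this direction was seen for 2 of 10 genes, where 5.54% of all genes showed it. Oas2 had 12.1, 12.3 and 9.33 CPM in sgNC and 11.1 to 32.6 (median 26.7) in sgUba1, and only sgUba1 replicate 2 lay inside the sgNC range. Its log2 fold change was 1.06 ± 0.33 (adjusted p = 0.0972). Oas1a had 9.79, 4.73 and 6.91 CPM in sgNC and 8.35 to 24.7 (median 14.97) in sgUba1, where 2 tumors overlapped sgNC, with a log2 fold change of 1.14 ± 0.40 (adjusted p = 0.127). DESeq2 called these same 4 genes, with adjusted p-values of 0.00175 for Oas3, 0.0131 for Oasl1, 0.0206 for Oas2 and 0.0402 for Oas1a. The lowest tumor of its group for Oas1a, Oas2, Oas3 and Oasl2, and also for Ifit1, Ifit3, Rsad2 and Bst2, was sgUba1 replicate 2. Without it edgeR called Oas3 (1.38, adjusted p = 0.0232) and Oas2 (1.18, adjusted p = 0.0399).

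Ifit3 had a difference of the same size, while Ifit1 and Ifit2 had the smallest. Ifit3 had 1.72, 5.94 and 2.17 CPM in sgNC and 3.02 to 11.7 (median 8.02) in sgUba1, so that sgNC replicate 2 lay inside the sgUba1 range (log2 fold change 1.13 ± 0.52, adjusted p = 0.216). Ifit1 had 5.58, 5.94 and 5.63 CPM in sgNC and 4.45 to 11.8 (median 7.53) in sgUba1, and Ifit2 had 17.4, 21.0 and 15.3 in sgNC and 13.6 to 27.6 (median 21.3) in sgUba1. These are differences of 0.53 (adjusted p = 0.323) and 0.25 (adjusted p = 0.494). Oasl2 stood at 12.6 to 15.6 CPM in sgNC and 10.3 to 41.0 in sgUba1 (0.98, adjusted p = 0.162), Rsad2 at 4.10 to 7.85 and 5.33 to 15.3 (0.78, adjusted p = 0.19), and Bst2 at 26.4 to 45.3 and 39.0 to 79.2 (0.64, adjusted p = 0.155).

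**Figure D2:**
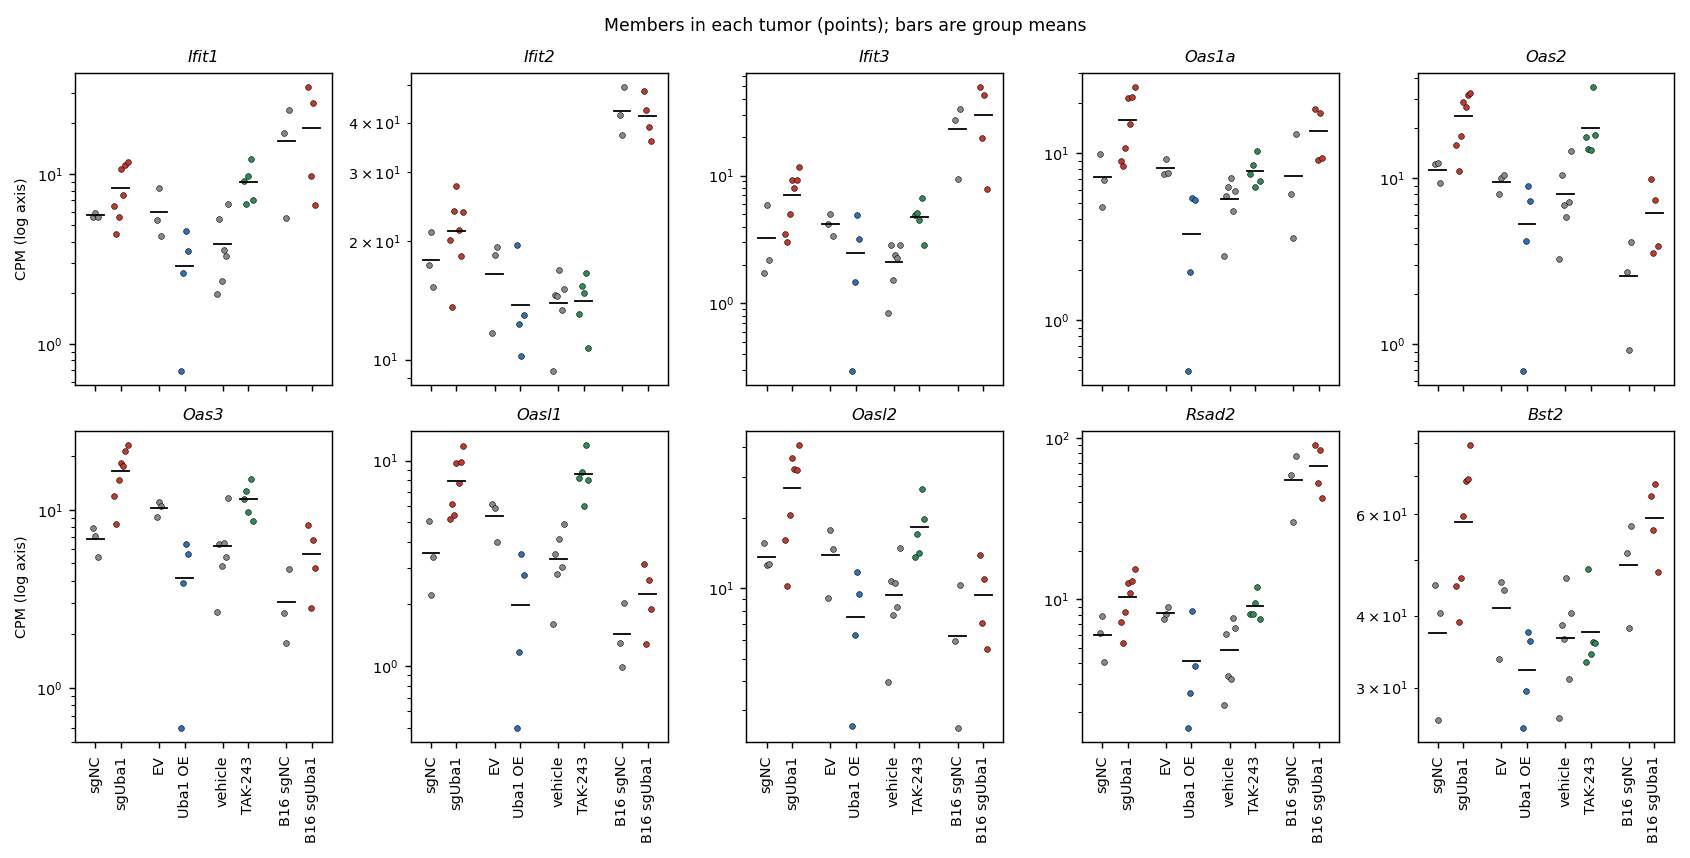
CPM of each of the 10 genes, on a log axis, in the 8 tumor groups, with a point for each tumor and bars at the group means. Oas3 and Oasl1 do not overlap between sgNC and the tumors labelled sgUba1, and OE replicate 1 is the lowest OE tumor for 9 of the 10 genes, Ifit2 being the exception.

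The differences lay mostly in the 4 tumors whose Uba1 RNA was not low. The mean log2 CPM of the 10 genes was 2.92 to 3.21 in sgNC, 3.11 to 3.65 in sgUba1 replicates 1 to 3 and 4.08 to 4.51 in replicates 4 to 7. Oas3 had 11.9, 8.35 and 14.7 CPM in replicates 1 to 3 and 18.3, 17.7, 21.3 and 23.1 in replicates 4 to 7, and Oasl1 had 5.19, 6.12 and 5.44 and then 9.74, 7.77, 9.90 and 11.7. With the 3 low-Uba1 libraries alone against sgNC, edgeR and DESeq2 each called 0 of 10. The log2 fold change was then 0.77 for Oas3 (adjusted p = 0.192), with Oasl1 0.64, Oas2 0.40, Oas1a 0.37, Ifit3 0.25, Bst2 0.21, Rsad2 0.20, Oasl2 0.19, Ifit2 0.10 and Ifit1 -0.06. Of all 15679 genes in that fit 0 were called higher, and Uba1 itself had -0.69 ± 0.08 with an adjusted p of 0.094. No test was made between the 2 sets of sgUba1 tumors, which were told apart by their Uba1 RNA only.

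Leukocyte RNA moved with these differences. The 6 leukocyte markers summed to 120 to 199 CPM in sgNC, to 193 to 248 in sgUba1 replicates 1 to 3 and to 287 to 338 in replicates 4 to 7. Of the 6, Ptprc (CD45, log2 fold change 1.06, adjusted p = 0.0459) and Lcp1 (0.69, adjusted p = 0.0288) were called higher. Of 8 macrophage markers 3 were called higher, Adgre1 (1.15), Cd68 (0.83) and C1qa (0.82). Their sum ran from 155 to 333 CPM in sgNC, from 255 to 455 in sgUba1 replicates 1 to 3 and from 326 to 346 in replicates 4 to 7. Unlike the leukocyte sums, the macrophage sums of replicates 4 to 7 lay within the range of replicates 1 to 3. In the 3 low-Uba1 libraries alone these differences were 0.93 for Ptprc, 0.60 for Lcp1, 0.97 for Adgre1, 0.75 for Cd68 and 0.87 for C1qa, with adjusted p-values of 0.134 to 0.201. Of 7 markers of plasmacytoid dendritic cells tested, a list that holds Bst2 itself, 0 were called higher, and Runx2 (-0.99) and Tcf4 (-0.58) were called lower, calls that were lost in the low-Uba1 libraries alone (-0.82 and -0.51, adjusted p = 0.159 and 0.165). The part of these cells in the result was not tested.

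**Figure D3:**
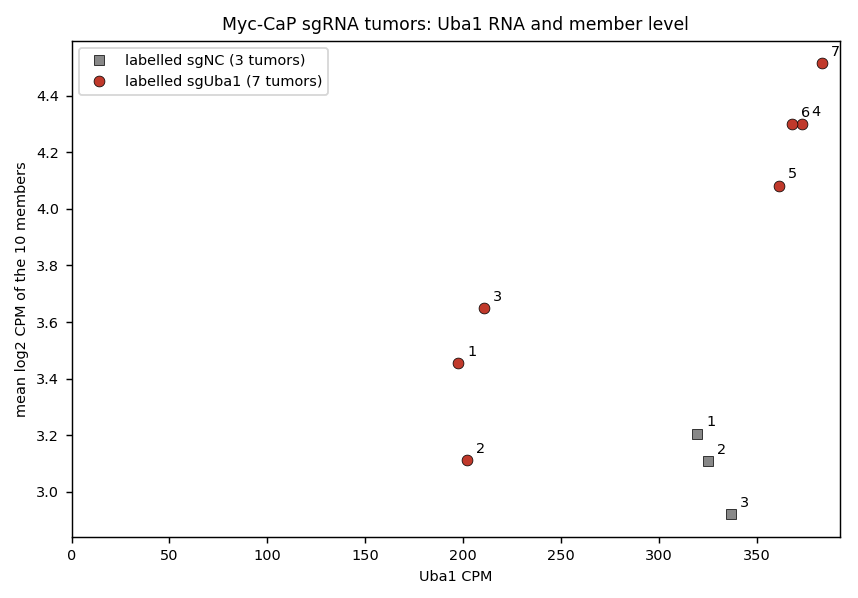
Uba1 RNA (CPM, x axis) against the mean log2 CPM of the 10 antiviral genes (y axis) in the 3 sgNC and 7 sgUba1-labelled Myc-CaP tumors, each point marked with its replicate number. Replicates 1 to 3 sit at 197 to 211 CPM of Uba1 and a mean of 3.11 to 3.65, and replicates 4 to 7 at 361 to 383 CPM and 4.08 to 4.51.

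In the B16-BL6 model, where Uba1 RNA followed the label in every tumor, Oas2, Oas1a and Oas3 had the largest differences and none of the 10 genes was called. A positive log2 fold change was seen in 9 of 10 genes, with a median of 0.47 beside 0.012 over all 17539 genes. EdgeR, DESeq2 and limma-voom each called 0 of 10, where edgeR called 0.268% of all genes higher. Oas2 and Oas3, 2 of 10, had an unadjusted p under 0.05, where 8.2% of all genes did. Oas2 had 2.71, 0.925 and 4.10 CPM in sgNC and 9.93, 3.53, 7.42 and 3.88 in sgUba1, and the groups overlapped (log2 fold change 1.27 ± 0.48, adjusted p = 0.246). Oas3 had 2.65, 1.79 and 4.62 CPM in sgNC and 8.25, 2.82, 6.73 and 4.69 in sgUba1, with only sgUba1 replicate 2 inside the sgNC range (0.90 ± 0.39, adjusted p = 0.288). For Oas1a the difference was 0.91, for Oasl1 0.65, for Oasl2 0.59, for Ifit3 0.36, for Rsad2 0.29, for Ifit1 and Bst2 0.27 each and for Ifit2 -0.04.

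Tumors within both B16-BL6 groups spread widely. Ifit3 ran over 27.3, 9.45 and 33.1 CPM in sgNC and 49.0, 19.7, 42.7 and 7.82 in sgUba1, and Rsad2 over 58.5, 30.0 and 76.6 and 90.3, 52.2, 84.2 and 42.1. In both genes sgNC replicate 2 was lowest of its group and sgUba1 replicate 1 highest. Without sgNC replicate 2 the difference was -0.14 for Ifit1, -0.02 for Ifit3 and -0.01 for Rsad2, and without sgUba1 replicate 1 it was -0.14 for Ifit1. Leukocyte markers summed to 122 to 169 CPM in sgNC and 136 to 242 in sgUba1, with 5 of 6 at an unadjusted p under 0.05 and 0 called by edgeR, and 6 of 8 macrophage markers likewise. Their part in the result was not tested.

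Whether the sgUba1 effect differed between the models was tested in a fit of both experiments, an alternative added after the data had been seen. The difference of log2 fold changes, B16-BL6 minus Myc-CaP, ran from -0.80 for Ifit3 to 0.19 for Oas2. EdgeR, DESeq2 and limma-voom called 0 of 10, none had an unadjusted p under 0.05, and 1.52% of all genes were called in either direction. The SE of the difference was 0.26 to 0.85, and with the 3 low-Uba1 Myc-CaP libraries alone the differences were 0.09 for Ifit3 and 0.86 for Oas2, with 0 called.

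With Uba1 overexpressed in Myc-CaP tumors, all 10 genes had a lower mean than with the empty vector, and 0 of 10 were called by edgeR, DESeq2 or limma-voom. The median log2 fold change was -0.93, beside 0.0033 over all 14853 genes, of which edgeR called 0.00673% lower. At an unadjusted p under 0.05 there were 2 of 10, Oas3 and Oasl1, where 8.15% of all genes were lower at that level. Oasl1 had 6.12, 5.89 and 4.02 CPM in EV and 0.496, 1.17, 3.505 and 2.78 in OE (log2 fold change -1.40 ± 0.51, adjusted p = 0.219). Oas3 had 9.07, 10.99 and 10.5 CPM in EV and 0.595, 3.90, 6.44 and 5.68 in OE (-1.28 ± 0.53, adjusted p = 0.255), and Oas1a had 7.43, 9.17 and 7.62 and then 0.496, 1.95, 5.38 and 5.25 (-1.29 ± 0.57, adjusted p = 0.278). These 3 of 10 did not overlap between the groups, as 10.1% of all genes did not in this direction. The others had differences of -1.04 (Ifit1), -0.98 (Rsad2), -0.87 (Oasl2), -0.83 (Oas2), -0.74 (Ifit3), -0.36 (Bst2) and -0.27 (Ifit2).

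OE replicate 1 held the lowest value of 9 of the 10 genes, and without it the log2 fold change was -1.08 for Oasl1, -0.92 for Oas3, -0.94 for Oas1a, -0.72 for Ifit1, -0.47 for Oas2 and -0.37 for Ifit3. The same tumor had the lowest leukocyte marker sum, 51.9 CPM, where the other OE tumors had 121 to 175 and the EV tumors 177 to 203. Macrophage markers summed to 224 to 267 CPM in EV and 87.9 to 254 in OE. Of the 6 leukocyte and 8 macrophage markers 0 were called by edgeR, with 1 and 2 lower at an unadjusted p under 0.05. Their part in the result was not tested.

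TAK-243 treatment of mice with Myc-CaP tumors separated the groups fully for 3 genes. Oasl1, Ifit1 and Oas2 were higher in every treated tumor than in every vehicle tumor, while Ifit2 and Bst2 had nearly equal means. Non-overlap in this direction held for 3 of 10 genes, beside 0.884% of all genes. Oasl1 had a lowest value of 1.61, a median of 3.26 and a highest of 4.90 CPM in the 6 vehicle tumors and 8.23, 8.83, 6.01, 11.9 and 8.03 in the 5 treated ones. Its log2 fold change was 1.37 ± 0.25 (adjusted p = 0.0606). Ifit1 had 1.97 to 6.68 CPM (median 3.44) with vehicle and 9.11, 6.70, 9.70, 12.3 and 7.03 with TAK-243 (1.21 ± 0.29, adjusted p = 0.12). Oas2 had 3.24 to 14.5 CPM (median 7.03) with vehicle and 17.6, 14.9, 14.7, 35.05 and 18.1 with TAK-243 (1.33 ± 0.34, adjusted p = 0.124). Ifit3 had 0.849 to 2.88 CPM (median 2.33) with vehicle and 4.88, 5.07, 4.46, 6.68 and 2.86 with TAK-243 (1.18 ± 0.29, adjusted p = 0.12), and replicate 5 alone overlapped vehicle. Oasl2 (0.96), Rsad2 (0.90), Oas3 (0.88) and Oas1a (0.57) had adjusted p-values of 0.159, 0.186, 0.189 and 0.284. Ifit2 stood at 9.36 to 16.9 CPM with vehicle and 10.7 to 16.6 with TAK-243 (0.01 ± 0.15), and Bst2 at 26.5 to 46.5 and 33.2 to 48.2 (0.04 ± 0.14).

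EdgeR called 0 of the 10 genes in the TAK-243 tumors, where 0.0867% of all genes were called higher, and 8 of 10 had an unadjusted p under 0.05, where 7.3% of all genes did. DESeq2 called 5 of 10, where it called 1.26% of all genes higher. They were Oasl1 (adjusted p = 4.33e-05), Ifit1 (0.00565), Oas2 (0.00714), Ifit3 (0.00721) and Oasl2 (0.0287). Limma-voom called Oasl1 (adjusted p = 0.0496). Without TAK-243 replicate 5 edgeR called Oasl1 (1.40, adjusted p = 0.035) and Ifit3 (1.32, adjusted p = 0.0426), and without vehicle replicate 6 it called Oasl1 (1.505, adjusted p = 0.0347). Oasl1 was also called with no filter on low counts (adjusted p = 0.0445).

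Neutrophil markers moved with TAK-243. Of 6 markers 4 were called higher, S100a9 (4.03), Retnlg (3.68), S100a8 (3.63) and Mmp8 (3.27 on the log2 scale), and the sum was 8.06 to 12.4 CPM with vehicle and 19.7 to 33.1 with TAK-243. Leukocyte markers summed to 81.7 to 165 CPM and 109 to 205, and macrophage markers to 121 to 171 and 144 to 318, with 0 of either called by edgeR and 1 of 6 and 5 of 8 higher at an unadjusted p under 0.05. Their part in the result was not tested. Uba1 itself had 311 to 379 CPM with vehicle and 283 to 368 with TAK-243, which acts on the protein.

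**Figure D4:**
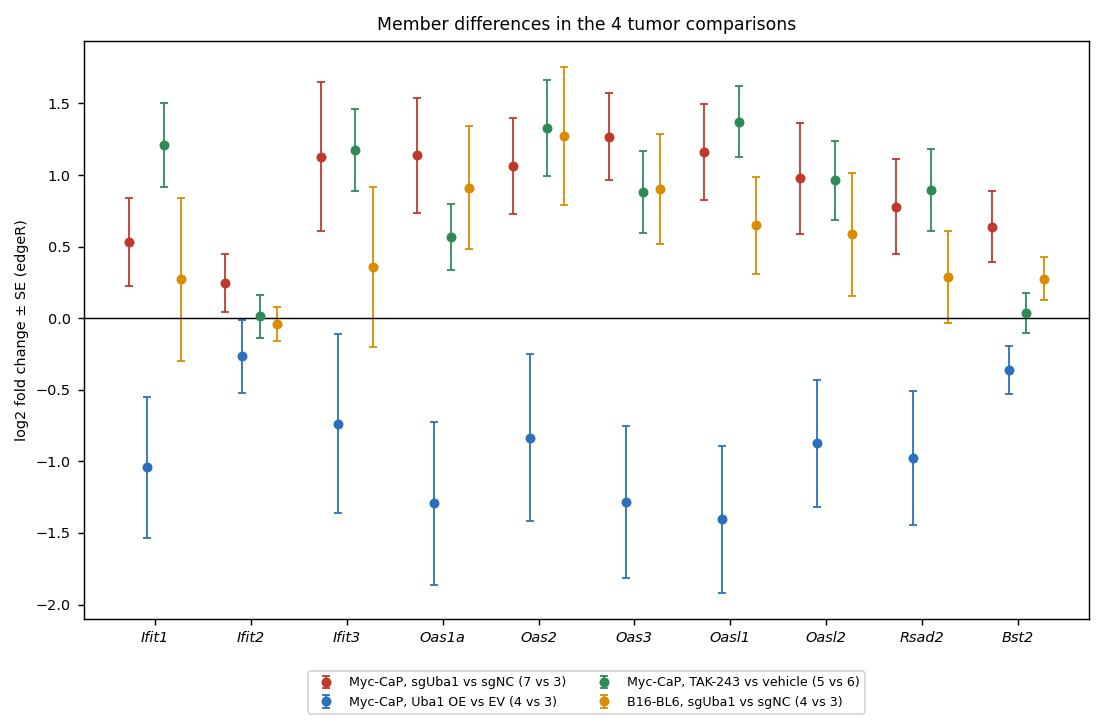
Log2 fold change of each of the 10 genes (points, with bars of 1 SE) in the 4 tumor comparisons, sgUba1 against sgNC in Myc-CaP and B16-BL6, OE against EV, and TAK-243 against vehicle. Medians are 1.02, 0.47, -0.93 and 0.93, and Ifit2 lies nearest to 0 in all 4.

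Depletion and overexpression were set against each other directly, in a fit of all 17 sgRNA and OE tumors, as the sgUba1 effect minus the OE effect. All 10 differences were positive. The test called 3 of 10, Oasl1 (2.56 ± 0.63, adjusted p = 0.0198), Oas3 (2.55 ± 0.63, adjusted p = 0.0204) and Oas1a (2.43 ± 0.74, adjusted p = 0.0461), where 4.48% of all genes were called in that direction. Oas2 (1.89), Ifit3 (1.87), Oasl2 (1.85), Rsad2 (1.76), Ifit1 (1.58), Bst2 (0.995) and Ifit2 (0.51) had adjusted p-values of 0.063 to 0.348. DESeq2 called 7 of 10, where it called 7.34% of all genes in that direction, and limma-voom the same 3 as edgeR. With the 3 low-Uba1 libraries as the only sgUba1 tumors 0 were called by edgeR, and the differences were 2.05 for Oasl1, 2.05 for Oas3 and 1.67 for Oas1a.

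The calls also rested on single control tumors. None was made without EV replicate 2 or without sgNC replicate 2, only Oas3 without EV replicate 1, and only Oasl1 without EV replicate 3 or sgNC replicate 3. Oas1a was lost without any of 11 libraries (EV replicates 1 to 3, sgNC 2 and 3, sgUba1 4 to 7, OE 1 and 2), with differences of 2.08 to 2.49 and adjusted p-values of 0.0511 to 0.119. Without sgUba1 replicate 2 or OE replicate 3 there were 6 calls. Oasl1 and Oas3 kept differences of at least 2.32 under every library left out except where OE replicate 1 was left out.

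The rest of the pathway was followed in lists written for this report. In tumors no list of interferon genes had many calls. Of 34 other antiviral effectors tested 0 were called by edgeR in any of the 4 tumor comparisons, and 18, 6, 1 and 21 were higher at an unadjusted p under 0.05 in Myc-CaP sgUba1, B16-BL6 sgUba1, OE and TAK-243. Over all genes 12.7%, 8.2%, 10% and 7.3% were higher at that level in these comparisons, and 8.15% were lower in OE. Positive fold changes were seen in 33, 33, 4 and 31 of the 34, with medians of 0.47, 0.36, -0.39 and 0.40, and 10 were lower at that level in OE. Genes that respond mainly to IFN-γ, such as the guanylate-binding proteins, had medians of 1.11, 0.81, -1.45 and 0.15, with 0 called in each. At an unadjusted p under 0.05, 9 of 20 were higher in Myc-CaP sgUba1, 6 of 19 higher in B16-BL6, 16 of 19 lower in OE and 3 of 20 higher with TAK-243. In the 3 low-Uba1 Myc-CaP libraries their median was 1.53 and that of the other antiviral effectors 0.29, with 0 called. Among RNA and DNA sensors, Dhx58 (LGP2) was called higher in the Myc-CaP tumors labelled sgUba1 (1.16, adjusted p = 0.0273), and had 1.12 with an adjusted p of 0.134 in the low-Uba1 libraries alone. Interferon genes themselves were near 0, and at most 1 of 20 passed the filter on low counts in any tumor fit.

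Across the pooled tumors Ifit2 had the lowest correlation with the other genes, a value that differed between experiments. With the mean of its group taken from each of the 35 tumors, the correlation of a gene's log2 CPM with the mean of the other 9 genes was 0.95 for Oas2 and Oasl2, 0.92 for Oas3, 0.91 for Ifit1 and Oas1a, 0.89 for Ifit3, 0.87 for Rsad2, 0.86 for Oasl1 and 0.72 for Bst2, but 0.20 for Ifit2. Over the 45 pairs the median was 0.80. Within experiments Ifit2 had 0.77 in the 7 B16-BL6 tumors, 0.78 in the 11 TAK-243 and vehicle tumors and 0.58 in the 10 Myc-CaP sgRNA tumors, but -0.66 in the 7 OE and EV tumors. In the B16-BL6 tumors every pair of the 10 genes had at least 0.58. Without the 4 sgUba1 tumors of high Uba1 RNA the pooled value was 0.12 for Ifit2 and 0.67 to 0.95 for the others, with a median over pairs of 0.78. In the 6 Myc-CaP sgRNA tumors then left, the median over pairs was 0.47, with Ifit3 at -0.0092 and Oasl1 at -0.18. Apart from the 10 themselves, the genes most like their mean, of 14273 compared, were Irf7 (r = 0.95), the factor that drives type I interferon, Usp18 (0.91), a brake on the interferon receptor, Apol9a (0.91), Xaf1 (0.91) and Rtp4 (0.89). Without those 4 tumors the 5 genes had 0.89 to 0.95 and ranked between 1 and 8. These are correlations across tumors that share experiments and leukocyte content, and they are given as a description.

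Cultured sgUba1 cells ask whether the same genes move in cancer cells alone. Without IFN-γ, Ifit2 rose, Ifit3 rose at low counts, and the other tested genes did not pass. Of the 10 genes 6 had enough counts to be tested (Ifit1, Ifit2, Ifit3, Oas3, Oasl2 and Bst2), and 2 of 6 were called higher, beside 16.2% of all genes. Ifit2 rose from 40.0 and 37.6 CPM in sgNC to 54.1 and 51.8 in sgUba1, a log2 fold change of 0.45 ± 0.06 (adjusted p = 0.000156). Ifit3 rose from 0.0369 and 0.229 CPM to 1.10 and 1.21, from 8 to 82 counts over the 2 libraries of a group, a ratio of 8.48 per total count (95% interval 4.11 to 20.3, counting error only) and an adjusted p of 0.000847. Ifit3 passed the filter on low counts only through the sgUba1 groups, in which it is high, so its call is a description and no support. Bst2 had 12.5 and 11.01 CPM in sgNC and 11.9 and 12.1 in sgUba1 (0.03 ± 0.08), and Oas3 0.442 and 0.327 and 0.367 and 0.423 (0.05 ± 0.40). Ifit1 had 0.442 and 0.653 CPM in sgNC and 0.310 and 0.254 in sgUba1 (-0.96 ± 0.49, adjusted p = 0.172). Oas1a was at 0 counts in all 4 libraries, which allows at most 3 counts per group at this depth, and Oas2, Oasl1 and Oasl2 had at most 2 counts in any. Rsad2, also under the filter, had 6 and 6 counts in sgNC and 1 and 5 in sgUba1.

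With IFN-γ in both arms, 4 of 6 tested genes were called higher in sgUba1, beside 17% of all genes. Bst2 rose from 13.9 and 14.8 CPM in sgNC to 24.7 and 24.5 (log2 fold change 0.77 ± 0.08, adjusted p = 1.72e-05), and Ifit2 from 41.7 and 43.6 to 57.9 and 56.5 (0.42 ± 0.05, adjusted p = 0.000107). Ifit3 rose from 0.361 and 0.275 CPM to 1.29 and 1.12 (1.92 ± 0.40, adjusted p = 0.00278) and Oasl2 from 0.230 and 0.330 to 0.822 and 1.005 (1.68 ± 0.46, adjusted p = 0.0123). Oasl2 passed the filter only through the sgUba1 group with IFN-γ, and Ifit3 only through the sgUba1 groups. The calls of Ifit3 and Oasl2 are therefore a description and no support. The Oasl2 call was lost with DESeq2 (adjusted p = 0.0597) and without sgNC IFN-γ replicate 1 (1.46, adjusted p = 0.0994), sgNC IFN-γ replicate 2 (1.97, adjusted p = 0.0518) or sgUba1 IFN-γ replicate 2 (1.57, adjusted p = 0.0801). Ifit1 (1.14, adjusted p = 0.0998) and Oas3 (0.70, adjusted p = 0.146) did not pass, and Oas1a and Oas2 had 2 counts each over both stimulated sgUba1 libraries. Rsad2 had 5 and 3 counts in stimulated sgNC and 2 and 2 in stimulated sgUba1 cells. When 1 of the 2 libraries of a group is left out here, the lone library is assumed to vary like the other groups.

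The upstream factors and the other targets were measured in the same cells. Without IFN-γ, Stat2, a subunit of ISGF3, was called higher (0.39), and 12 of 27 other antiviral effectors were called higher, beside 16.2% of all genes, and 3 lower, led by Slfn2 (3.98), Samd9l (3.39) and the genes Rtp4 and Mx2, which were at 0 in sgNC. Slfn2 had a mean of 0.065 CPM in sgNC and 1.14 in sgUba1, and Rtp4 and Mx2 had 0.21 and 0.13 in sgUba1. Slfn2, Rtp4 and Mx2 stood higher only in the sgUba1 groups, so their calls are a description and no support. With IFN-γ, Irf8 (1.21), Irf1 (0.79) and Irf9 (0.40) were called higher and Irf3 (-0.32) lower. Genes that respond mainly to IFN-γ were called higher in 7 of 17 without the cytokine and 13 of 17 with it, led there by Gbp3 (3.19), Igtp (3.04), Nlrc5 (3.03) and Gbp7 (2.90). Nlrc5 had a mean of 0.13 CPM in stimulated sgNC and 1.12 in stimulated sgUba1 cells, so its call too is a description and no support. The 4 called genes of the antiviral set had log2 differences of 0.42 to 1.92 in the same libraries.

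With TAK-243 in culture the 2 abundant genes fell. Without IFN-γ, Ifit2 fell from 40.7 and 42.5 CPM in untreated cells to 27.1 and 26.3, a log2 fold change of -0.64 ± 0.08 (adjusted p = 3.37e-08), and Bst2 fell from 13.3 and 10.1 to 8.77 and 7.54 (-0.51 ± 0.14, adjusted p = 0.00196). The Bst2 call rested on untreated replicate 1, without which the difference was -0.30 (adjusted p = 0.103). Oasl1 rose from 1 count over the untreated libraries to 28, a ratio of 28.4 (95% interval 4.69 to 1161, counting error only) with an adjusted p of 0.000123. Oasl1 passed the filter on low counts only through the TAK-243 libraries, in which it is high, so its call is a description and no support. Of 7 genes tested 1 was called higher and 2 lower, beside 32.3% and 34% of all genes. Calls in either direction were thus no more frequent in the set than over all genes. Ifit1, Ifit3, Oas3 and Oasl2 had differences of 0.40, 0.36, 0.61 and 0.14 with adjusted p-values of 0.301 to 0.897. Rsad2, under the filter, had 5 and 2 counts in untreated cells and 4 and 4 with TAK-243.

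With IFN-γ in both arms the same pair fell under TAK-243. Ifit2 went from 33.2 and 33.6 CPM to 25.5 and 24.2 (-0.43 ± 0.08, adjusted p = 3.59e-05), a difference that was -0.18 and not called by limma on log2(TPM + 1), and Bst2 from 21.5 and 21.2 to 13.4 and 14.5 (-0.61 ± 0.12, adjusted p = 3.14e-05). Ifit1 rose from 4 to 47 counts, a ratio of 11.3 (95% interval 4.14 to 43.2) with an adjusted p of 6.26e-05, and Oasl1 from 2 to 26, a ratio of 12.5 (3.13 to 109) with an adjusted p of 0.000826. Both of these genes passed the filter only through TAK-243 groups, so their calls are a description and no support. Calls were 2 of 7 higher and 2 of 7 lower, beside 32% and 36.2% of all genes. Among genes under the filter on low counts, Rsad2 had 1 count in the untreated libraries and 15 with TAK-243, a ratio of 14.4 (2.22 to 608), and Oas1a had 1 and 8. These shares of calls are near or below the background.

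Factors upstream did not go one way with TAK-243. Without IFN-γ, Irf3 (-1.11) was called lower while Irf1 (0.83) and Irf9 (0.62) were called higher, and of the receptors and kinases Jak1 (1.51) and Ifngr2 (1.11) were higher and Jak2 (-0.54) lower. Of 25 other antiviral effectors 5 were called higher and 9 lower, shares of the list that lie below and near the 32.3% and 34% of all genes, with Slfn2 (-2.42), Helz2 (1.96), Nmi (-1.54) and Dtx3l (-1.23) the largest.

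IFN-γ raised Bst2 and Oasl2 in untreated cells. In untreated cells Bst2 rose from 13.3 and 10.1 CPM to 21.5 and 21.2 (log2 fold change 0.86 ± 0.12, adjusted p = 1.56e-06), and Oasl2 from 0.192 and 0.187 to 1.41 and 1.66 (2.97 ± 0.56, adjusted p = 0.000141). Oasl2 passed the filter only through the IFN-γ groups, in which it is high, so its calls are a description and no support. Ifit2 fell from 40.7 and 42.5 to 33.2 and 33.6 (-0.32 ± 0.08, adjusted p = 0.00214). Ifit1 fell from 20 to 4 counts (-2.17 ± 0.81, adjusted p = 0.0438), a call that was lost without untreated replicate 1 (-1.64, adjusted p = 0.287), without untreated IFN-γ replicate 2 (-1.14, adjusted p = 0.384) and without any of the 4 TAK-243 libraries (adjusted p of 0.0523 to 0.0658). Calls were 2 of 7 higher, beside 19.6% of all genes, and 2 of 7 lower, beside 9.39%. In TAK-243 cells the same 2 genes rose, Bst2 by 0.77 ± 0.14 (adjusted p = 0.000313) and Oasl2 by 3.46 ± 0.53 (adjusted p = 4.55e-05), 2 of 7 beside 5.76% of all genes. DESeq2 gave neither an adjusted p there.

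In the sgRNA experiment none of the 6 tested genes was called for IFN-γ in sgNC cells. EdgeR called 0 of 6, beside 3.03% of all genes called higher, with 3 of 6 higher and 1 of 6 lower at an unadjusted p under 0.05, beside 16.9% and 6.15% of all genes. DESeq2 called 0 with 2 of the 6 given an adjusted p, and limma-voom called 0. Bst2 had 12.5 and 11.01 CPM with PBS and 13.9 and 14.8 with IFN-γ (0.30 ± 0.08, adjusted p = 0.0734), and Oasl2 had 2 and 19 counts (2.90 ± 0.86, adjusted p = 0.0809). Without sgNC replicate 1 the differences were 0.39 for Bst2, 6.30 for Oasl2 and 0.18 for Ifit2. The sgNC library then left, replicate 2, had 0 counts of Oasl2, which sets the size of that difference. In sgUba1 cells Bst2 rose from 11.9 and 12.1 CPM to 24.7 and 24.5 (1.04 ± 0.08, adjusted p = 3.19e-05) and Oasl2 from 3 to 66 counts, a ratio of 21.5 (95% interval 7.03 to 107) with an adjusted p of 0.0107. These were 2 of 6, beside 1.2% of all genes. Oasl2 passed the filter on low counts only through the sgUba1 group with IFN-γ, in which it is high. Its call is therefore a description and no support. The Oasl2 call was lost without any 1 of the 4 sgUba1 libraries, with adjusted p-values of 0.0600 to 0.158.

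The difference of the 2 IFN-γ responses, sgUba1 minus sgNC, was called for Bst2 (0.74 ± 0.11, adjusted p = 0.0144), 1 of 6 genes beside 0.663% of all genes. For the others it ran from -1.11 (Ifit3) to 2.10 (Ifit1), with adjusted p-values of 0.112 to 0.901. The Bst2 difference was 0.70 to 0.81 in the 5 cases where leaving out a library ended the call (sgNC IFN-γ replicate 1 or 2, sgUba1 replicate 1 or 2, sgUba1 IFN-γ replicate 1), with adjusted p-values of 0.0800 to 0.127. Between TAK-243 and untreated cells the IFN-γ responses gave 0 of 7 calls by edgeR, DESeq2 (with no gene of the set given an adjusted p) and limma-voom, beside 2.38% of all genes in either direction, and 1 of 7 at an unadjusted p under 0.05. That gene was Ifit1 (3.05 ± 0.95, adjusted p = 0.0856), and 3.94% of all genes were higher at that level. Ifit1 passed the filter on low counts only through the TAK-243 groups, in which it is high. Its difference is therefore a description and no support. Without untreated IFN-γ replicate 1 it was 7.17, a size set by replicate 2, which had 0 counts.

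**Figure D5:**
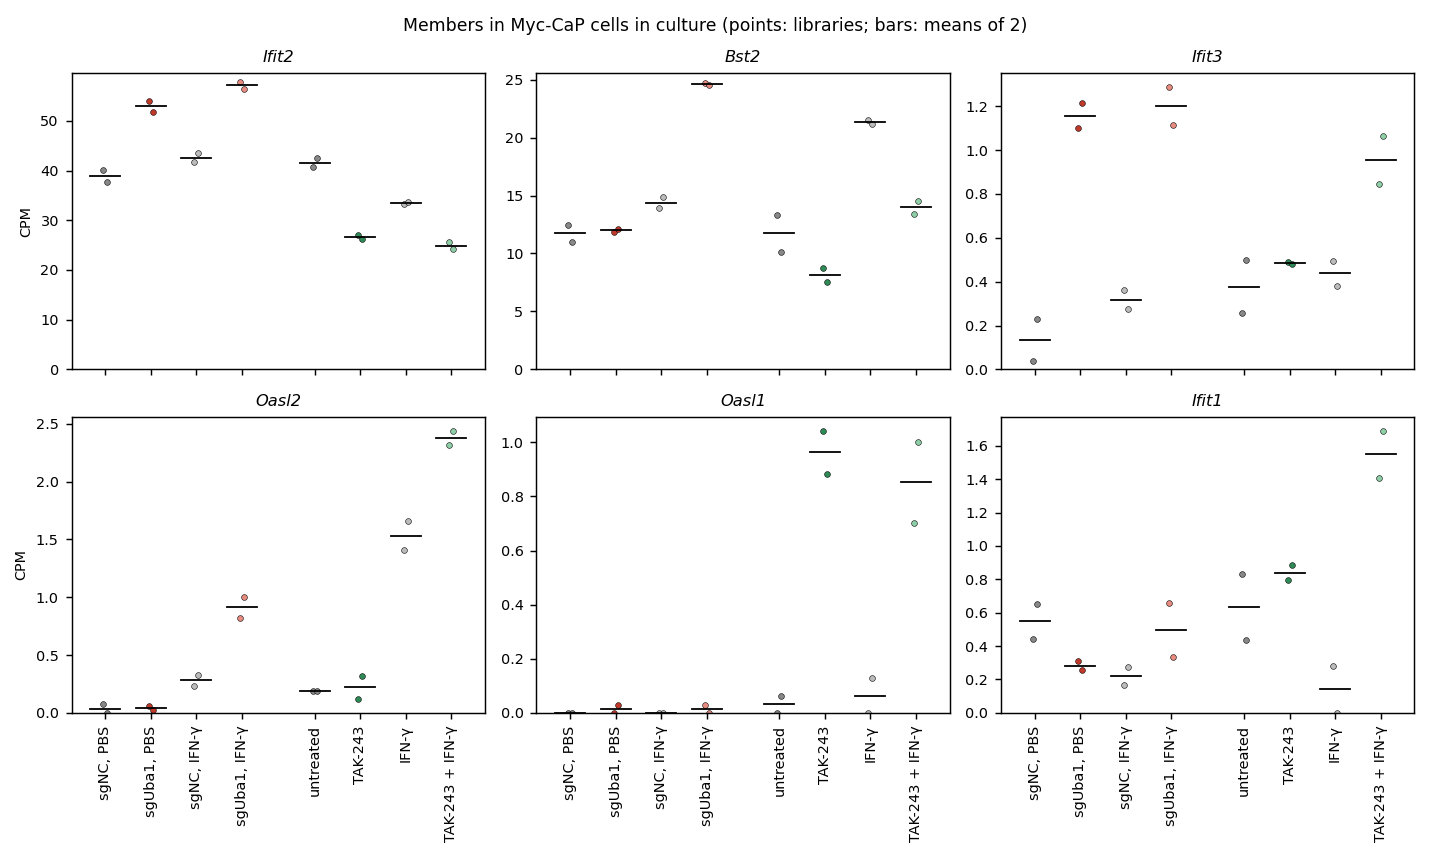
CPM of Ifit2, Bst2, Ifit3, Oasl2, Oasl1 and Ifit1 in the 8 groups of cultured Myc-CaP cells, on linear axes from 0, with points for the 2 libraries of each group and bars at their mean. Ifit2 is higher in sgUba1 than in sgNC cells and lower with TAK-243 than without it, and Bst2 reaches 24.7 and 24.5 CPM in sgUba1 cells with IFN-γ.

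The genetic and the chemical loss of UBA1 function were compared in a fit of all 16 cell libraries, as the TAK-243 effect minus the sgUba1 effect, each against its own controls. The 2 agents differ in kind and time, and values are set side by side on that footing. Without IFN-γ the difference was called lower for Ifit2 (-1.10 ± 0.08, adjusted p = 1.26e-09), Ifit3 (-2.68 ± 0.80, adjusted p = 0.00763) and Bst2 (-0.56 ± 0.17, adjusted p = 0.00778), 3 of 7 beside 30.2% of all genes. In the sgRNA cells Ifit3 passed the filter on low counts only through the sgUba1 groups, in which it is high. The Ifit3 call is therefore a description and no support. Ifit3 was not called without untreated replicate 2 (-2.14, adjusted p = 0.102), nor Bst2 without untreated replicate 1 (-0.37, adjusted p = 0.0816). With IFN-γ, Bst2 (-1.39 ± 0.15, adjusted p = 9.25e-08) and Ifit2 (-0.87 ± 0.09, adjusted p = 4.25e-08) were called, 2 of 7 beside 30.7%. In the other direction 25.2% of all genes were called without IFN-γ and 26% with it, and 0 of the set. With 7 genes tested, 3 and 2 lower calls are shares near those of all genes. They do not set the antiviral genes apart from other genes. In tumors Ifit2 and Bst2 were the genes of the set with the smallest TAK-243 differences, 0.01 for Ifit2 and 0.04 for Bst2.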

How the data were processed

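Bulk RNA-seq of 51 libraries was analysed from the tables of the authors. Per the labels, the submitters' processing notes name kallisto and mm10, and versions are not given in the sources used here. The deposited estimated counts per gene were made by the authors with kallisto and were rounded to whole numbers before testing. The deposited TPM, which the authors scaled for transcript length and depth, were used for levels between genes. Library preparation is given as poly-A selection in the labels and otherwise in the study's methods, which could change the measured share of RNA without a tail.

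Counts were fitted per experiment with edgeR 4.0.16 (TMM, filterByExpr, quasi-likelihood) in R 4.3.3, with adjusted p under 0.05 as the threshold. DESeq2 1.42.0, limma-voom and limma 3.58.1 on log2(TPM + 1) and log2(TPM + 0.1), other filters and scaling, added near copies, a replicate block and leaving out each library were tried. The CPM of single libraries carry no prior count, whereas correlations used log2 CPM with a prior count of 2. Intervals of count ratios are exact at 95% and cover counting error only. The fits were tested on simulated data. Named genes were the 10 in every comparison, up to 4 called genes of each other list with the largest change, Uba1, and the 5 genes most like the mean of the 10 in tumors. The same ranking over the cell libraries is not given, since most of the 10 were near 0 counts there and their mean log2 CPM with a prior count moves with depth. The members, lists and tests were chosen with earlier results of these data known. A gene of the signaling lists is not reported here. Of 75 pairs of replicates 0 were identical.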

Additional observations from a re-analysis of the deposited data

Results flagged for a closer look

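Among 50 sets of 4 to 10 tumors or libraries of a gene within a group, 2 had an extreme value set apart from the rest by Dixon's criterion, and chance alone gives about 1 in 20. Bst2 in TAK-243 tumor replicate 2 had 48.2 CPM, with the next tumor at 36.0, a gap of 0.816 of the range against a critical value of 0.71. Oas2 in TAK-243 tumor replicate 4 had 35.05 CPM, with the next at 18.1 and a gap of 0.836 of the range.

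The IFN-γ response of Bst2 differed between sgUba1 and sgNC cells by 0.74 on the log2 scale in the test of the difference by edgeR (adjusted p = 0.0144), and the call was lost without any of 5 of the 8 libraries.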

How the results depend on the processing

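Of 1721 values of single genes under an alternative, 1586 kept direction and side of the threshold, 58 lost a call, 41 gained a call and 36 changed sign. The number of the 10 genes called moved as follows.

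For sgUba1 against sgNC in Myc-CaP tumors (0), DESeq2 called 4, and limma on log2(TPM + 1), on log2(TPM + 0.1) and a mean of at least 10 counts 1 each. For TAK-243 tumors (0), DESeq2 called 5, limma-voom 1 and no filter 1. For the sgUba1 minus OE effect (3), DESeq2 called 7, limma on either TPM scale 5, Bonferroni adjustment 0 and the low-Uba1 libraries alone 0. In cells, Bonferroni adjustment left 0 of 2 for sgUba1 without IFN-γ, 1 of 4 with it, 1 of 2 for IFN-γ in sgUba1, 0 of 1 for the difference of IFN-γ responses, 1 of 3 and 0 of 4 for TAK-243 without and with IFN-γ, 1 of 4 and 1 of 2 for IFN-γ in untreated and TAK-243 cells and 1 of 3 for TAK-243 minus sgUba1 without IFN-γ. DESeq2 called 0 of 2 for IFN-γ in sgUba1 (1 of 6 genes given an adjusted p), 2 of 4 in untreated and 0 of 2 in TAK-243 cells (none given one). Limma on either TPM scale called 1 of 2 for IFN-γ in sgUba1 and in TAK-243 cells, 0 of 1 for the sgUba1 difference of responses, and 4 against 2 for TAK-243 minus sgUba1 with IFN-γ. With no filter there were 2 calls for IFN-γ in sgNC (0), 1 for the TAK-243 difference of responses (0) and 4 for TAK-243 minus sgUba1 with IFN-γ (2).

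With single libraries left out, calls ranged from 0 to 2 for sgUba1 in Myc-CaP, 0 to 0 in B16-BL6 and OE, 0 to 2 for TAK-243 tumors and 0 to 6 for sgUba1 minus OE. In cells they ranged from 2 to 2 for sgUba1, 3 to 4 with IFN-γ, 0 to 3 for IFN-γ in sgNC, 1 to 2 in sgUba1, 3 to 4 in untreated and 2 to 2 in TAK-243 cells, 2 to 3 for TAK-243, 4 to 5 with IFN-γ, 0 to 1 for both differences of responses, and 2 to 3 and 2 to 4 for TAK-243 minus sgUba1 without and with IFN-γ.

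Signs changed in small values. For Ifit1 in Myc-CaP sgUba1 it was -0.06 with the low-Uba1 libraries (-0.0566 by edgeR, -0.0576 by DESeq2). On the TPM scales Ifit2 was 0.08 (0.0804 and 0.0769) in B16-BL6, -0.02 (-0.0169 and -0.0162) for IFN-γ in sgNC and 0.06 (0.0631 and 0.0609) for the sgUba1 difference of responses, and Bst2 0.0764 and 0.0679 for the TAK-243 difference of responses. Ifit3 in B16-BL6 minus Myc-CaP was 0.0862 with the low-Uba1 libraries. With a library left out, B16-BL6 values ran from -0.14 to 0.71 (Ifit1), -0.13 to 0.0717 (Ifit2), -0.0223 to 0.70 (Ifit3) and -0.0084 to 0.60 (Rsad2), TAK-243 tumor values from -0.0775 to 0.11 (Ifit2) and -0.0699 to 0.11 (Bst2), Bst2 in sgUba1 cells from -0.0587 to 0.12, Ifit2 in the sgUba1 difference of responses from -0.0710 to 0.0440 and Bst2 in the TAK-243 one from -0.31 to 0.0921. The cause of these changes was not tested.

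Same-numbered samples did not all deviate together (r from -0.18 to 0.31, under 0.1 in at least 1 pair of every comparison), so replicate numbers were not treated as pairs. With 2 to 5 shared numbers in a comparison, this check cannot exclude a pairing. With the replicate number as a block, 0 of 3 calls were left for sgUba1 minus OE, Ifit1 in Myc-CaP sgUba1 was -0.0646, and the other counts of calls were unchanged. Limits of these data include groups of 2 libraries, low counts of 8 genes in cells and 4 tumors labelled sgUba1 whose Uba1 RNA was not low.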
